A study of Danio rerio with 25 samples.

Results

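The microRNAs of the zebrafish (Danio rerio) brain were compared between males aged 12 months and males aged 6 months, the first step of adult life in a series of 5 ages. The comparison took the 5 libraries labelled 1 year and the 5 labelled 6 months, 10 of 25 in all. It covered every miRNA of the count table, which gave 217 miRNAs once numbered hairpin copies of a name were summed, out of 346 hairpin entries. All fish were males of the strain AB JxTü. The 12-month fish carried Tg(flk:mCherry), a line in which the promoter of a receptor gene for vascular endothelial growth factor drives a red fluorescent protein in the endothelium of blood vessels. No transgene is named for the 6-month fish, nor for the 24-month fish that serve as a later time point. The 36- and 42-month libraries, which are given for context, are labelled Tg(pu.1:GFP) and Tg(wt1a:GFP). Line and age therefore cannot be told apart between 12 and 6 months. Titles give 1 number per library at 12 months and 2 at 6 months, without saying what the numbers stand for. The labels do not say that the libraries come from separate animals, so the p-values measure the spread between these libraries, which may be technical.

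miRNAs are short RNAs cut from hairpin precursors that guide Argonaute proteins to messenger RNAs and lower their translation and stability. A few bases near the 5′ end, the seed, choose the targets, so that miRNAs with a common seed form families with overlapping targets. Many hairpins lie side by side in the genome and are cut from a common transcript, which makes clusters and families separate groupings. Tissues and cell types carry characteristic miRNAs, such as miR-338 and miR-219 in myelinating oligodendrocytes, miR-451 and miR-144 in red blood cells and the miR-200 family in epithelia. Each value here counts reads of a whole hairpin, so the arm is not known, and members with nearly identical sequences, such as miR-27b and miR-27d or miR-10b and miR-10c, can share reads.

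The total miRNA count per library was between 5993186 and 16993499 at 12 months and between 3983783 and 8072968 at 6 months. At least 1 count was found for 201 to 205 miRNAs per library at 12 months and for 201 to 206 at 6 months. Levels are given in CPM, counts per 1000000 of the library size after TMM scaling, for libraries 1 to 5 of each age. The largest counts in the 10 libraries were those of miR-181a, miR-128, let-7a, miR-9 and miR-21. miR-181a averaged 241100 ± 26600 CPM at 12 months and 266100 ± 21500 CPM at 6 months (SD, n = 5 each). The neural miRNAs miR-9, miR-124 and miR-128 were present at high levels in every library, with lowest values of 47290, 5933 and 62420 CPM at 12 months and 41290, 4107 and 52720 CPM at 6 months.

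Some libraries stood apart in miRNAs of epithelia, skin and sensory cells. The 6 measured members of the miR-200 family, which mark epithelia, summed to 147, 140.3, 407, 2843 and 547 CPM in the 12-month libraries and to 8628, 1157, 840.5, 470.1 and 7521 CPM in the 6-month libraries. Library 4 was thus well above the other 12-month libraries, and libraries 1 and 5 well above the other 6-month libraries. Skin miRNAs, miR-205 with the miR-203 pair, summed to 382, 334, 2016, 5084 and 2148 CPM at 12 months and to 1253, 3432, 541, 486 and 1296 CPM at 6 months. The sensory cell cluster miR-182, miR-183 and miR-96 reached 6757 CPM in 12-month library 4, against 2171 to 3132 CPM in the other 12-month libraries, and 20230 and 19960 CPM in 6-month libraries 1 and 5, against 2844 to 6335 CPM in the other 6-month libraries. Results are therefore also given without 12-month library 4, which was singled out after the values were seen. They are also given without the 6 libraries of these ages whose miR-200 or skin sum exceeded 2000 CPM of the library total. These were libraries 3, 4 and 5 at 12 months and 1, 2 and 5 at 6 months. That set also leaves out 1 library of 36 months from the common fit.

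**Figure D1:**
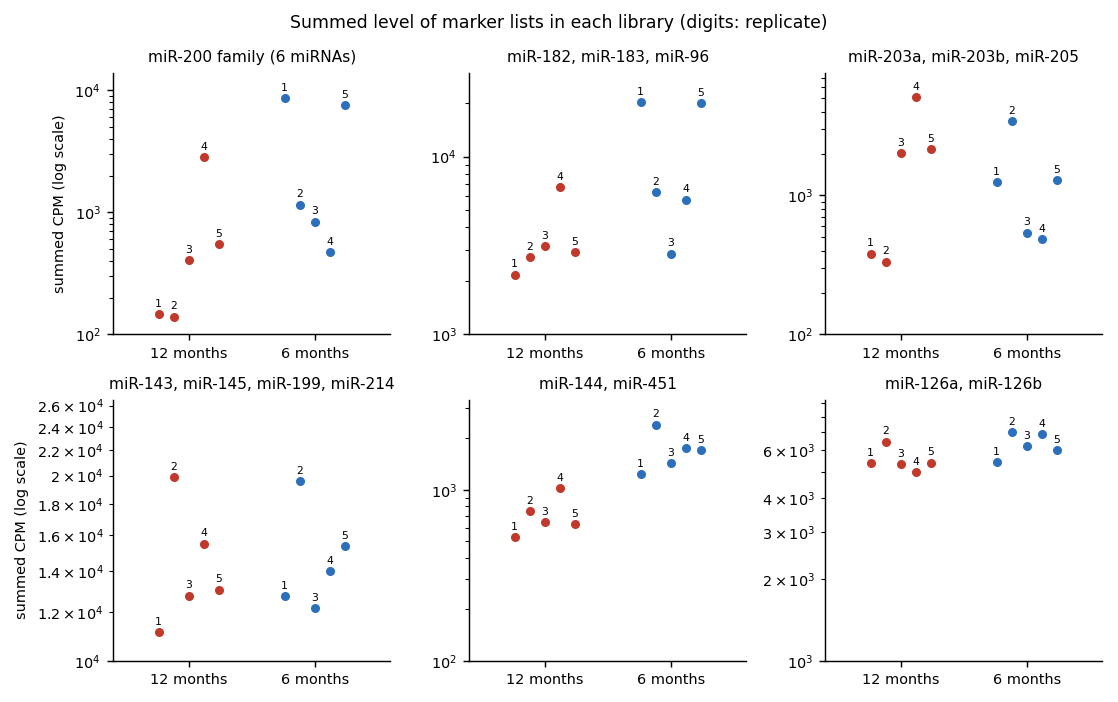
Summed CPM of 6 marker lists in each library on a logarithmic axis, 12 months in red on the left and 6 months in blue on the right, with the replicate number above each point. 12-month library 4 had the highest miR-200, sensory cell and skin sums of its age, and the red blood cell sums of the 2 ages did not overlap, at 529.7 to 1026 CPM at 12 months and 1241 to 2410 CPM at 6 months.

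Of the 197 miRNAs with enough counts to test, 28 (14.2%) differed at an adjusted p under 0.05 in edgeR's quasi-likelihood test. There were 14 higher (7.11%) and 14 lower (7.11%) at 12 months. With library totals in place of TMM factors the split was 11 higher and 18 lower of 29. At an unadjusted p under 0.05 there were 70, or 35.5%. DESeq2's Wald test called 49 of the 197 and limma-voom 26. Counts for the lists below stand against these totals. The median log2 change over all 197 was 0.02, with 101 positive and 96 negative changes. The libraries of the 2 ages did not overlap at all for 27 miRNAs (13.7%), with 13 (6.6%) above and 14 (7.11%) below at 12 months. Of these, 17 also passed the adjusted test and 10 did not. Without 12-month library 4 the number called was 66 of 197, with 28 higher and 38 lower, and 27 of the 28 calls above were among them. Without 6-month library 1 or 5 alone, which had larger miR-200 sums, the number called was 23 or 20. Values given below without 12-month library 4 thus come from the single omission with the most calls. Without the libraries over 2000 CPM only 4 libraries of the 2 ages remained and 10 miRNAs were called, 7 of them among the 28.

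**Figure D2:**
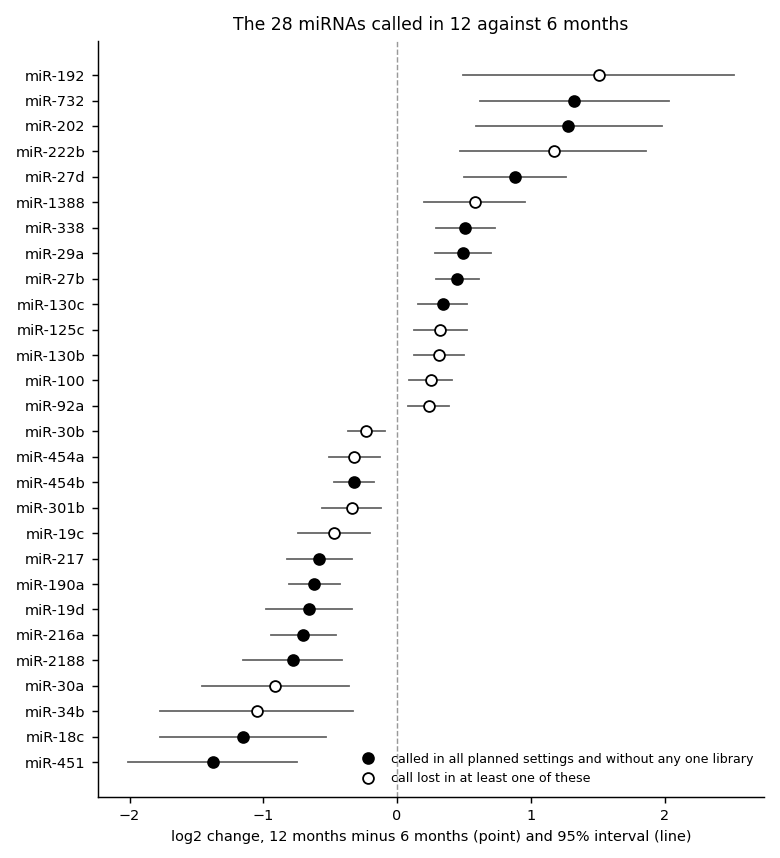
Log2 change of the 28 called miRNAs, 12 months minus 6 months, as points with lines for the 95% interval. Values right of 0 are higher at 12 months, from 0.24 for miR-92a to 1.51 for miR-192, and values left of 0 are lower, from -0.23 for miR-30b to -1.38 for miR-451. The 15 filled points stayed called in each planned setting that tested them and without any single library.

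The decreases with the smallest adjusted p were those of miR-190a, miR-216a and miR-217. In mammals miR-190a lies in an intron of the talin 2 gene, and miR-216a and miR-217 are known as miRNAs of the pancreas. miR-190a had 159, 144, 142, 142 and 129 CPM in the 12-month libraries, against 194, 214, 224, 246 and 220 CPM in the 6-month libraries. Every 12-month library was below every 6-month library, and the log2 change was -0.62 ± 0.09 (SE; adjusted p = 0.000218, edgeR's quasi-likelihood test). miR-216a had 152, 114, 148, 117 and 138 CPM at 12 months, against 177, 227, 221.6, 247 and 214 CPM at 6 months, again without overlap, and fell by 0.70 on the log2 scale (SE 0.12, adjusted p = 0.000419). miR-217 had 84.9, 67.8, 86.7, 71 and 85.4 CPM at 12 months, against 98.3, 138, 131, 116 and 108 CPM at 6 months. It fell by 0.58 (SE 0.11, adjusted p = 0.00238), and the libraries did not overlap.

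miR-216b lies beside miR-216a and miR-217, with at most 10000 bases between neighbours in RefSeq's GRCz12tu assembly. Its levels overlapped, at 778, 604, 788, 601 and 768 CPM at 12 months and 699, 783, 907, 847 and 694 CPM at 6 months. The log2 change was -0.15 ± 0.11 (SE; adjusted p = 0.325), so the decrease seen in its 2 neighbours was not detected in miR-216b. A difference between them was not tested. The endocrine miRNA miR-375, the last of the 4 fixed for pancreas and endocrine cells, averaged 174 ± 143 CPM at 12 months and 583 ± 741 CPM at 6 months (SD, n = 5 each) and was not called (adjusted p = 0.22). miR-190a, miR-216a and miR-217 were called in all 9 planned settings and without any single library. They were also called without the libraries over 2000 CPM, with adjusted p-values of 0.0214, 0.0214 and 0.0427.

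**Figure D3:**
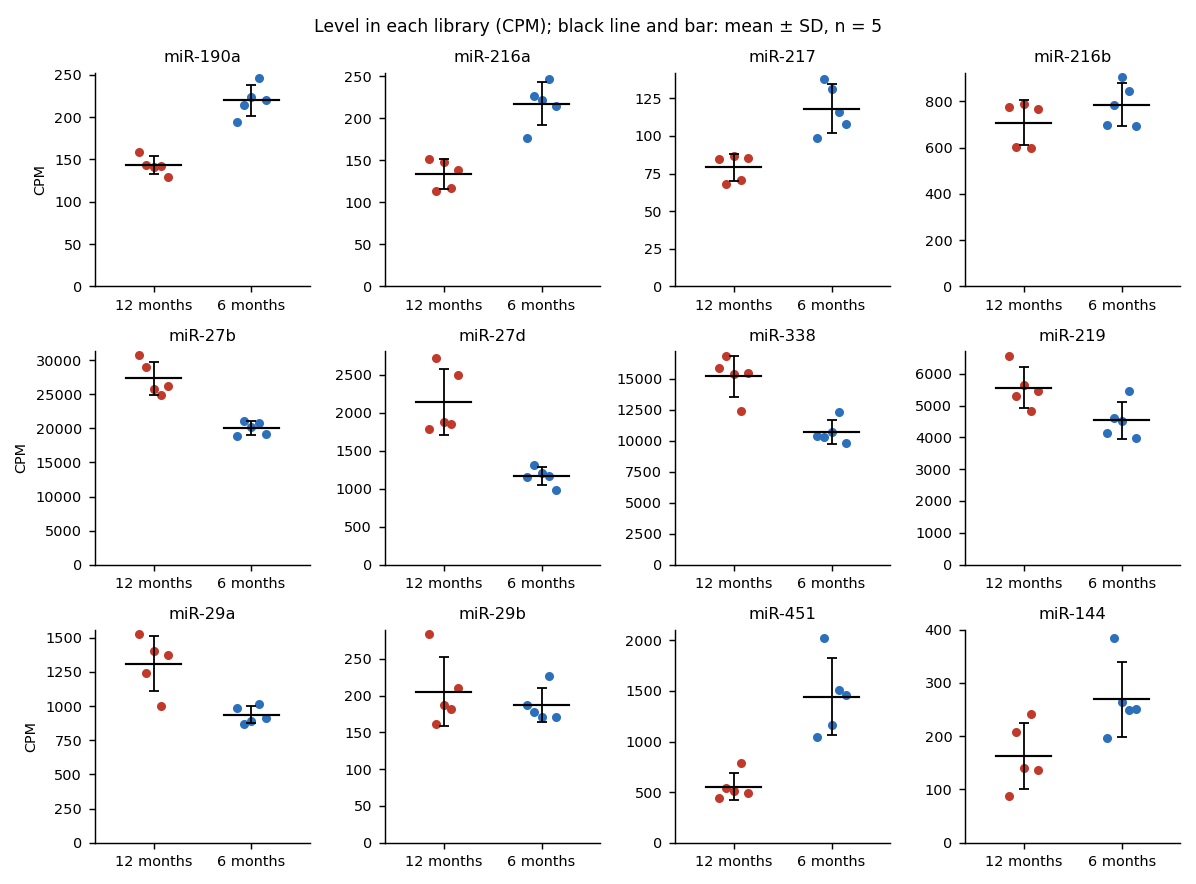
CPM of 12 miRNAs in each library, 12 months in red on the left and 6 months in blue on the right, with the mean as a line and the SD as a bar (n = 5 each). miR-190a, miR-216a, miR-217, miR-27b, miR-27d, miR-338 and miR-451 show no overlap between the ages, while miR-216b, miR-219, miR-29a, miR-29b and miR-144 overlap.

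Members of the miR-130, miR-301 and miR-454 family, which share a seed, moved in opposite directions. Of its 8 tested members, 2 rose and 3 fell, where 7.11% of all tested miRNAs were called in each direction, and the median log2 change was -0.19, against 0.02 over all miRNAs. miR-130c had 1001, 865, 946, 823 and 896 CPM at 12 months, against 749, 661, 703, 760 and 709 CPM at 6 months. miR-130b had 784, 800, 812, 683 and 758 CPM at 12 months, against 633, 579, 665, 628 and 580 CPM at 6 months. Neither overlapped between the ages, and the log2 changes were 0.34 ± 0.09 (SE; adjusted p = 0.0103) for miR-130c and 0.31 ± 0.09 (adjusted p = 0.0191) for miR-130b. miR-130a was higher in every 12-month library too, at 316 to 438 CPM against 261 to 315 CPM at 6 months, but was not called (0.35 ± 0.13, adjusted p = 0.064).

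The fallen members were miR-454b, miR-454a and miR-301b. miR-454b had 1477, 1198, 1318, 1471 and 1305 CPM at 12 months, against 1674, 1586, 1758, 1848 and 1582 CPM at 6 months, with no overlap and a decrease of 0.32 on the log2 scale (SE 0.07, adjusted p = 0.0058). miR-454a had 1074, 949, 905, 989 and 891 CPM at 12 months, against 1087, 1066, 1248, 1447 and 1149 CPM at 6 months, a change of -0.32 ± 0.09 (SE; adjusted p = 0.0219) with overlap in 1 library. miR-301b averaged 136 ± 10.5 CPM at 12 months and 172 ± 16.3 CPM at 6 months (SD, n = 5 each) and fell by 0.34 (SE 0.10, adjusted p = 0.0305). miR-301a (-0.23, adjusted p = 0.0978) and miR-301c (-0.15, adjusted p = 0.232) were not called. The calls of miR-130b were lost without library 2 or 3 of 12 months or library 5 of 6 months (highest adjusted p = 0.0575). Those of miR-454a were lost without 12-month library 3 or 6-month library 4 (0.064), and those of miR-301b without library 2, 3 or 5 of 12 months or 4 or 5 of 6 months (0.0778). Without the libraries over 2000 CPM none of the 5 remained called (adjusted p = 0.159 for miR-130c, 0.212 for miR-130b, 0.0512 for miR-454b, 0.0888 for miR-454a and 0.116 for miR-301b), each with its sign kept. With the log2 miR-200 and skin sums as covariates, miR-130c and miR-454b remained called (adjusted p = 0.0332 and 0.0471).

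Members with log2 changes of opposite sign lie beside each other in the genome. In the RefSeq assembly a miR-130c copy, miR-301b, miR-454b and miR-130b form 1 cluster, another miR-130c copy lies beside miR-301c, and miR-454a, miR-301a and miR-130a form another. Only the first of these holds members called in both directions, and no difference between neighbours was tested. A ratio of counts of 2 miRNAs within a library does not depend on library scaling. The ratio of miR-130b to miR-454b was 0.572 ± 0.078 at 12 months and 0.366 ± 0.016 at 6 months (SD, n = 5 each), with ranges of 0.464 to 0.668 and 0.34 to 0.378. The ratio of miR-130a to miR-454a averaged 0.383 at 12 months and 0.243 at 6 months, that of miR-130b to miR-301b 5.69 and 3.61, and that of miR-130c to miR-301c 5.0 and 3.55. In each of these 4 ratios all 12-month libraries were above all 6-month libraries. For miR-130b to miR-454b and miR-130c to miR-301c this had to be so. Their first member was higher and their second lower in every 12-month library, so these ratios add no support. All pairs were chosen with the changes of their members known. The ratios do not show which member moved. Family members with nearly identical sequences can share reads, and how such reads were counted is not known. A ratio can therefore mix reads from several clusters and does not show unequal change within 1 cluster. The miR-130c count also sums copies from 2 clusters. No test was run on the ratios.

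**Figure D4:**
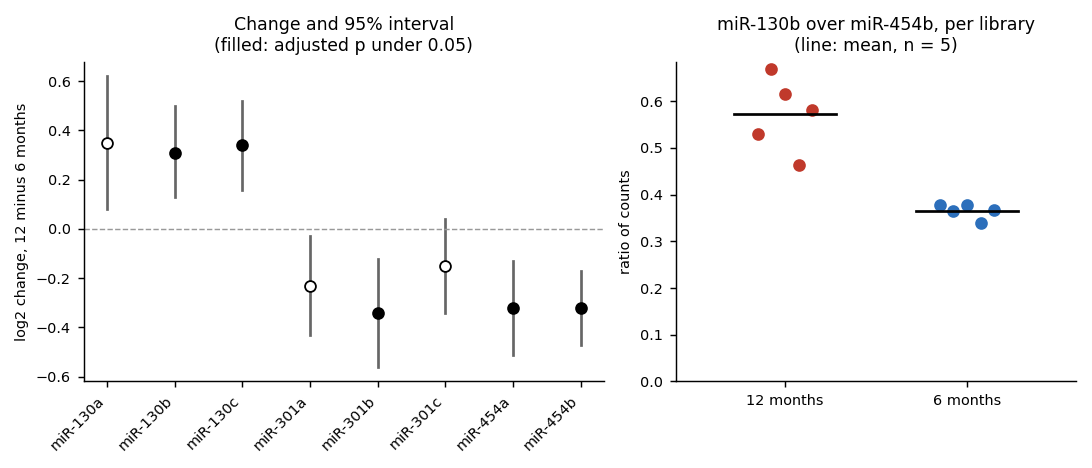
Left, log2 change of the 8 members of the miR-130, miR-301 and miR-454 family, 12 minus 6 months, with 95% intervals and filled points for an adjusted p under 0.05; the miR-130 members lie above 0 and the miR-301 and miR-454 members below. Right, ratio of miR-130b to miR-454b counts in each library with the mean as a line (n = 5 each), between 0.464 and 0.668 at 12 months and between 0.34 and 0.378 at 6 months.

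In the miR-23, miR-24 and miR-27 group, whose members are cut from a few clusters and are best known from blood vessels and lipid metabolism, 2 of 8 tested miRNAs rose and none fell, against 7.11% of all miRNAs in each direction. miR-27b had 30730, 29040, 25860, 24890 and 26200 CPM at 12 months, against 18950, 21100, 20270, 20840 and 19140 CPM at 6 months. Every 12-month library was above every 6-month library, and miR-27b, among the 10 miRNAs with the most counts, rose by 0.45 on the log2 scale (SE 0.08, adjusted p = 0.00053). miR-27d had 1778, 2717, 1870, 1852 and 2494 CPM at 12 months, against 1158, 1309, 1206, 1162 and 979 CPM at 6 months, and rose by 0.88 (SE 0.18, adjusted p = 0.00268) without overlap. Its cluster partner miR-23b averaged 637 ± 47.3 CPM at 12 months and 588 ± 61.4 CPM at 6 months (SD, n = 5 each; 0.11, adjusted p = 0.372). The ratio of miR-27d to miR-23b was 3.35 ± 0.53 at 12 months and 1.99 ± 0.22 at 6 months, again without overlap. miR-24 is summed over 5 copies, which lie beside miR-27b, miR-27d, miR-27c or miR-27e, so its level is not that of 1 neighbour. Its log2 change was -0.08 (adjusted p = 0.712), and those of miR-23a, miR-27a, miR-27c and miR-27e were between -0.01 and 0.32 with no call. Both calls held in all planned settings and without any single library. miR-27b was also called without the libraries over 2000 CPM (adjusted p = 0.00591), as was miR-27d (adjusted p = 0.0214). With the miR-200 and skin sums as covariates the change of miR-27d was 0.53 and its call was lost (adjusted p = 0.0826).

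miR-338, which with miR-219 promotes the maturation of oligodendrocytes, the myelin-forming cells, was higher at 12 months. It had 15900, 16840, 15360, 12440 and 15490 CPM in the 12-month libraries, against 10360, 10330, 10670, 12320 and 9820 CPM in the 6-month libraries. The ranges only just failed to meet, at 12-month library 4 and 6-month library 4, and the rise was 0.51 on the log2 scale (SE 0.11, adjusted p = 0.00279). miR-219 had 6574, 5298, 5664, 4829 and 5471 CPM at 12 months, against 4135, 4616, 4524, 5471 and 3979 CPM at 6 months. Its log2 change of 0.29 ± 0.11 (SE) missed the threshold (adjusted p = 0.064) and passed it without 12-month library 4 (0.34, adjusted p = 0.0307). Without the libraries over 2000 CPM (0.24, adjusted p = 0.288) and with the covariates (0.09, adjusted p = 0.53) it was not called. Both values come from RNA of brain tissue, in which more cells of a type and more RNA per cell cannot be told apart.

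Of the miR-29 pair, known to repress collagens and other matrix genes, miR-29a rose. miR-29a had 1527, 1240, 1405, 1004 and 1377 CPM at 12 months, against 984, 872, 891, 1017 and 912 CPM at 6 months. Library 4 of 12 months fell within the 6-month range and the other 4 were above it; the log2 change was 0.49 ± 0.10 (SE; adjusted p = 0.00268). miR-29b, summed over 2 copies of which 1 was found beside miR-29a, averaged 205 ± 47.1 CPM at 12 months and 187 ± 23.2 CPM at 6 months (SD, n = 5 each). Its log2 change was 0.13 (adjusted p = 0.649). The ratio of miR-29b to miR-29a was 0.157 ± 0.026 at 12 months and 0.199 ± 0.014 at 6 months, and every 12-month library was below every 6-month library. miR-101a and miR-101b, which target the histone methyltransferase Ezh2 in mammals, had log2 changes of 0.39 (adjusted p = 0.0593) and 0.38 (adjusted p = 0.0576), and without 12-month library 4 both passed (0.45 each, adjusted p = 0.0304 and 0.0207). Neither was called without the libraries over 2000 CPM (adjusted p = 0.259 and 0.388) or with the covariates (0.136 and 0.229). miR-26a and miR-26b, at 22960 CPM or more in all 10 libraries, differed by -0.01 and -0.04, with neither called.

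The relatives of the miR-17-92 cluster, a group tied to cell proliferation, had 13 tested members, of which 1 rose and 3 fell, with a median log2 change of -0.30, where 7.11% of all miRNAs were called in each direction. Without the libraries over 2000 CPM none of the 13 was called, and with the miR-200 and skin sums as covariates 1 was, miR-18c (adjusted p = 0.0332). The fallen members were miR-19c, miR-19d and miR-18c. miR-19d had 157, 118, 122, 173 and 122 CPM at 12 months, against 235, 194, 221, 229 and 212 CPM at 6 months, without overlap, and fell by 0.66 (SE 0.15, adjusted p = 0.0058). miR-19c had 35.9, 33.1, 43.5, 47.4 and 41.3 CPM at 12 months, against 54.3, 54.2, 61.1, 55 and 54.5 CPM at 6 months, a decrease of 0.47 (SE 0.13, adjusted p = 0.0191) that also showed no overlap. miR-18c was rare, at 1.6 ± 0.556 CPM at 12 months, against 3.57 ± 1.08 CPM at 6 months (SD, n = 5 each; -1.15, adjusted p = 0.0124). The members miR-19a and miR-19b had log2 changes of -0.37 (adjusted p = 0.0593) and -0.30 (adjusted p = 0.103), and all 4 miR-19 members were thus negative. miR-92a went the other way. It had 16820, 16160, 15800, 15220 and 14800 CPM at 12 months, against 13040, 13720, 13510, 13760 and 12870 CPM at 6 months, and rose by 0.24 (SE 0.07, adjusted p = 0.0305) without overlap. The call of miR-92a was lost without library 1, 2 or 3 of 12 months or 1, 3, 4 or 5 of 6 months (highest adjusted p = 0.0888), and with library totals. That of miR-19c was lost without 12-month library 2 (0.054).

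The miR-15, miR-16 and miR-457 family, which restrains the cell cycle in mammals, had no call among 8 members, with 2 at an unadjusted p under 0.05, 1 called by DESeq2 and 1 by limma-voom. Over all 197 miRNAs these counts were 70, 49 and 26, and 66 were called without 12-month library 4. Without 12-month library 4, miR-15c (-0.70, adjusted p = 0.0238) and miR-457a (-0.54, adjusted p = 0.0307) passed, and without the libraries over 2000 CPM miR-15b and miR-457a did (adjusted p = 0.0441 each). miR-15c had 25.7, 48.8, 45.8, 59 and 42.8 CPM at 12 months, against 59.4, 63.8, 73.6, 63.7 and 69.9 CPM at 6 months. The ranges were apart by less than 1 CPM, and the log2 change of -0.57 ± 0.20 (SE) did not pass (adjusted p = 0.0593). Its neighbour miR-16a had 58.1 ± 9.3 CPM at 12 months and 67.2 ± 2.12 CPM at 6 months (SD, n = 5 each; adjusted p = 0.537), also without overlap.

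The miR-10 miRNAs lie in the Hox gene clusters and are known from the hindbrain and spinal cord, so that their level can depend on how much of these regions a sample holds. miR-10b had 12520, 11760, 22850, 12110 and 13700 CPM at 12 months, against 8708, 6449, 7237, 2840 and 6120 CPM at 6 months. miR-10c had 9637, 8190, 13520, 6482 and 8462 CPM at 12 months, against 5403, 4187, 5109, 1353 and 3582 CPM at 6 months. For miR-10a, the 12-month values of 2262 to 4833 CPM stood against 348 to 2037 CPM at 6 months. In all 3 every 12-month library was above every 6-month library, with library 3 the highest at 12 months and library 4 the lowest at 6 months. The log2 changes were above 1 with wide errors, 1.22 ± 0.44 for miR-10b, 1.24 ± 0.48 for miR-10c and 1.28 ± 0.55 for miR-10a (SE), and none passed (adjusted p = 0.0636, 0.0707 and 0.0991). miR-10b (1.28, adjusted p = 0.0437) and miR-10c (1.34, adjusted p = 0.0449) passed without 12-month library 4. Neither was called without the libraries over 2000 CPM (adjusted p = 0.334 and 0.311) or with the covariates (0.229 each). miR-10d had 2479 to 6305 CPM at 12 months and 1081 to 2606 CPM at 6 months (0.93, adjusted p = 0.127). The rare miR-196a, miR-196b and miR-196c, averaging 1.19 to 2.1 CPM at 12 months, had log2 changes of 0.03, 0.11 and 0.45 with no call. DESeq2 called 2 of the 7 tested miR-10 and miR-196 members, limma-voom 0, and 4 had an unadjusted p under 0.05. Over all 197 miRNAs these counts were 49, 26 and 70, and 66 were called without 12-month library 4. The dissection of the samples is not described in the labels, and its part in the result was not tested.

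The related miR-99, miR-100 and miR-125 miRNAs, 4 of which lie beside let-7 members, were all positive, with 2 of 5 called, against 14.2% of all miRNAs, and a median log2 change of 0.20. miR-100 had 12610, 11850, 10730, 11090 and 9950 CPM at 12 months, against 9371, 8688, 9906, 10490 and 8897 CPM at 6 months. miR-125c had 2428, 1918, 2249, 1811 and 1913 CPM at 12 months, against 1811, 1523, 1712, 1574 and 1626 CPM at 6 months. The 2 ages overlapped in miR-100 and touched in miR-125c, and the log2 changes were 0.25 ± 0.08 (SE; adjusted p = 0.0305) and 0.32 ± 0.09 (adjusted p = 0.0227). Without library 1 or 2 of 12 months, or 1, 2 or 5 of 6 months, miR-100 was not called (highest adjusted p = 0.091). Without library 1 or 3 of 12 months, or 2, 4 or 5 of 6 months, the same held for miR-125c (0.0733), as it did in the fit of the 10 libraries. Neither was called without the libraries over 2000 CPM (adjusted p = 0.0924 for miR-100 and 0.104 for miR-125c) or with the covariates (0.0826 and 0.0933). let-7 itself, a family that rises as cells mature, had no call among 10 members, with 4 at an unadjusted p under 0.05, 0 called by DESeq2 and 0 by limma-voom. Over all 197 miRNAs these counts were 70, 49 and 26, and 66 were called without 12-month library 4. Without 12-month library 4, let-7d (0.19, adjusted p = 0.0313) and let-7h (0.24, adjusted p = 0.0304) passed. Neither was called without the libraries over 2000 CPM (adjusted p = 0.116 and 0.142) or with the covariates (0.313 and 0.305). The log2 changes of the let-7 family ran from -0.17 for let-7f to 0.30 for let-7i.

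miR-451, which is cut by Argonaute 2 in place of Dicer and is made with miR-144 in developing red blood cells, showed the largest decrease among the called miRNAs. It had 442, 540, 507, 783 and 494 CPM in the 12-month libraries, against 1045, 2025, 1165, 1513 and 1455 CPM in the 6-month libraries. All 12-month libraries were below all 6-month libraries, and the log2 change was -1.38 ± 0.30 (SE; adjusted p = 0.0039). miR-144 had 87.2, 208, 140, 242 and 137 CPM at 12 months, against 195.9, 385, 264, 249.5 and 251 CPM at 6 months, and was not called (-0.72 ± 0.29, adjusted p = 0.0826). Without 12-month library 4, the highest of its age for both, miR-144 passed (-0.91, adjusted p = 0.0313). It was not called without the libraries over 2000 CPM (-0.80, adjusted p = 0.334) or with the covariates (-0.92, adjusted p = 0.0826). The sum of the 2, by library totals, averaged 737 ± 198 CPM at 12 months and 1818 ± 545 CPM at 6 months (SD, n = 5 each). An exact two-sided permutation test over 252 splits gave p = 0.00794, the smallest it can give, and 0.0635 after adjustment over 8 summaries. None of the leukocyte miRNAs miR-142a, miR-142b, miR-150 and miR-223 was called, with 1 at an unadjusted p under 0.05, 0 called by DESeq2 and 0 by limma-voom, and they summed to 1164 to 2029 CPM at 12 months and to 1241 to 2645 CPM at 6 months. How much blood the samples held was not measured, and its part in the result was not tested. Without the libraries over 2000 CPM the log2 change of miR-451 was -1.46 with an adjusted p of 0.116.

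miR-2188 fell as well. It had 188, 167, 174, 190 and 156 CPM at 12 months, against 249 to 368 CPM and an average of 300.7 ± 44.2 CPM at 6 months (SD, n = 5). The ages did not overlap, and the log2 change was -0.78 ± 0.18 (SE; adjusted p = 0.00508). The calls of miR-451 and miR-2188 held in all planned settings and without any single library; without the libraries over 2000 CPM the adjusted p of miR-2188 was 0.188.

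The endothelial pair miR-126a and miR-126b, of interest because the 12-month line marks endothelium, was not called. miR-126a had 3406, 4045, 3361, 3161 and 3372 CPM at 12 months, against 3509, 4355, 3949, 4322 and 3786 CPM at 6 months. miR-126b averaged 2046 ± 219 CPM at 12 months and 2318 ± 292 CPM at 6 months (SD, n = 5 each). The log2 changes were -0.20 (adjusted p = 0.0926) and -0.18 (adjusted p = 0.193), with 1 of the 2 at an unadjusted p under 0.05, 0 called by DESeq2 and 0 by limma-voom. The summed level of the pair by library totals was 5666 ± 632 CPM at 12 months and 6665 ± 805 CPM at 6 months (exact permutation p = 0.0714, adjusted 0.127). No mural or mesenchymal miRNA was called among 4, with 0 at an unadjusted p under 0.05 and 0 by DESeq2 or limma-voom. miR-143 and miR-145 differed by 0.02 and -0.10. miR-199 and miR-214 differed by -0.40 and -0.60 with overlap, and passed only without 12-month library 4 (-1.13, adjusted p = 0.0369, and -1.29, adjusted p = 0.0195).

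miR-222b, a paralog of a miRNA pair that represses the cell cycle inhibitor p27 in mammals, rose. It had 78.3, 175, 126, 136 and 70.7 CPM at 12 months, against 56.1, 64.5, 39.6, 45.7 and 54.5 CPM at 6 months. Libraries 1 and 5 of 12 months were close above the 6-month range, and the log2 change was 1.17 ± 0.33 (SE; adjusted p = 0.0219). The call was lost without 12-month library 2 or 6-month library 3 or 4 (highest adjusted p = 0.0705), with limma-voom, and without the libraries over 2000 CPM (1.57, adjusted p = 0.0512). With the miR-200 and skin sums as covariates the change was 0.72 (adjusted p = 0.248). The paralogs miR-221 and miR-222a, at 13900 ± 3530 and 18790 ± 3530 CPM at 12 months and 10140 ± 499 and 14240 ± 1740 CPM at 6 months (SD, n = 5 each), were not called (0.46 and 0.40, adjusted p = 0.163 and 0.155).

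None of the 16 neuronal miRNAs was called, from the miR-9, miR-124, miR-128, miR-129, miR-137, miR-138, miR-7, miR-135, miR-153 and miR-218 families, with 1 at an unadjusted p under 0.05, 0 called by DESeq2 and 0 by limma-voom. Their log2 changes ran from -0.23 to 0.41 with a median of -0.06. The upper end was miR-124, which represses non-neuronal genes in neurons, at 7228 ± 1380 CPM at 12 months, against 5437 ± 1140 CPM at 6 months (SD, n = 5 each; adjusted p = 0.146). miR-135c had 689, 679, 729, 813 and 739 CPM at 12 months, against 848, 855, 874, 860 and 847 CPM at 6 months. Its ranges did not overlap, yet the log2 change of -0.23 ± 0.09 (SE) did not pass (adjusted p = 0.076). It passed without 12-month library 4 (-0.27, adjusted p = 0.0345). It did not pass without the libraries over 2000 CPM (-0.35, adjusted p = 0.185) or with the covariates (-0.30, adjusted p = 0.0826). The activity-regulated pair miR-132 and miR-212, which share a transcript induced by neuronal firing, had log2 changes of 0.18 and 0.20 (adjusted p = 0.259 and 0.205). Both missed the unadjusted threshold of 0.05 too, and 0 were called by DESeq2 or limma-voom.

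Among miRNAs of immune response, miR-21, miR-146a, miR-146b and miR-155 had positive log2 changes of 0.09 to 0.82 and no call, with 1 at an unadjusted p under 0.05, 1 called by DESeq2 and 0 by limma-voom. miR-462 and miR-731 are neighbours that interferon induces in fish. miR-731 had 910, 1211, 697, 1059 and 537 CPM at 12 months, against 641, 722, 413, 306 and 498 CPM at 6 months. It was not called (0.77 ± 0.28, adjusted p = 0.064), and neither was miR-462 (0.27, adjusted p = 0.483).

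miR-192, a miRNA of gut and liver, had the largest increase of the called miRNAs. It had 215, 778, 576, 379 and 931 CPM at 12 months, against 176, 359, 186, 144 and 147 CPM at 6 months. The ages overlapped, and the log2 change was 1.51 ± 0.49 (SE; adjusted p = 0.0402). Libraries 1 and 4 of 12 months were also low in the liver miRNA miR-122, which had 3.51, 37.3, 38, 5.96 and 58.5 CPM at 12 months, against 3.4, 7.27, 4.51, 4.97 and 7.45 CPM at 6 months. The same libraries were low in miR-194a, the neighbour of miR-192, which had 5.92, 20.5, 17.5, 5.44 and 30 CPM at 12 months, against 6.28, 7.27, 4.92, 3.1 and 4.42 CPM at 6 months. Thus miR-192, miR-122 and miR-194a were high together in 12-month libraries 2, 3 and 5. The fourth miRNA of the liver and gut list, miR-194b, was too rare to test. It had 0.74, 0.688, 0.586, 0.777 and 0.773 CPM at 12 months and did not follow them. The 4 summed to 837, 632 and 1020 CPM in libraries 2, 3 and 5, most of it miR-192. The other 12-month libraries had 225 and 391 CPM, and those of 6 months 153 to 374 CPM. The part of these miRNAs in the result was not tested. miR-122 and miR-194a were not called (adjusted p = 0.064 and 0.0593), and both passed without 12-month library 4 (2.63, adjusted p = 0.032, and 1.81, adjusted p = 0.0267). Neither was called without the libraries over 2000 CPM (adjusted p = 0.405 and 0.272) or with the covariates (0.229 and 0.241). The call of miR-192 was lost without library 2, 3 or 5 of 12 months or 1, 3, 4 or 5 of 6 months (highest adjusted p = 0.0989), with library totals and with limma-voom, and without the libraries over 2000 CPM or with the covariates (adjusted p = 0.25 and 0.187).

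miR-34b, which with its neighbour miR-34c is made in ciliated cells, fell. It had 94.8, 53.9, 72.4, 86.6 and 59.4 CPM at 12 months, against 260, 66.1, 100, 123 and 213 CPM at 6 months, a log2 change of -1.05 ± 0.35 (SE; adjusted p = 0.0431). The high values were those of 6-month libraries 1 and 5, which also had the highest miR-200 sums, 8628 and 7521 CPM. With the log2 miR-200 and skin sums as covariates the change was -0.12 (adjusted p = 0.789). The call was also lost without library 2, 3 or 5 of 12 months or 1, 4 or 5 of 6 months (highest adjusted p = 0.125), with limma-voom and in the fit of the 10 libraries. miR-34c had 62.5 to 99 CPM at 12 months and 62.4 to 264 CPM at 6 months and was not called (-0.90, adjusted p = 0.0998).

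The 6 members of the miR-200 family, miR-200a, miR-200b, miR-200c, miR-141, miR-429a and miR-429b, had log2 changes of -2.04 to -2.90, the most negative of the 30 lists, and none was called, even at an unadjusted p under 0.05 or by DESeq2 or limma-voom. Without 12-month library 4 all 6 passed, with changes of -3.25 to -5.42, against 66 of all 197 miRNAs. Without the libraries over 2000 CPM 0 of the 6 were called. Library 4 was picked for its miR-200, skin and sensory cell sums, and the libraries over 2000 CPM for their miR-200 or skin sums. Leaving them out therefore does not test the miRNAs of these lists. Levels at 6 months themselves spread widely, miR-200a for example from 188 to 2795 CPM, against 34.9 to 917 CPM at 12 months. The 3 sensory cell miRNAs behaved alike, with -1.60 to -2.13 and no call by edgeR or limma-voom. DESeq2 called 3, against 49 of all 197 miRNAs. None was called without the libraries over 2000 CPM or with the covariates, and 3 were without library 4, with -1.95 to -2.67. The skin miRNAs had 0.10 to 0.73 and no call, with 0 at an unadjusted p under 0.05 and 0 by either other tool, and 2 of the 3 changed sign without that library. Muscle miRNAs gave no call among 6 by any of the 3 tools, without the libraries over 2000 CPM or with the covariates. Without library 4 miR-133c, miR-206 and miR-499 passed (-3.16, -3.23 and -1.57). Each of these 3 was carried by library 4 at 12 months and library 2 at 6 months, as for miR-206 at 36.1 CPM against 1.36 to 1.96 CPM in the other 12-month libraries, and 55.1 CPM against 1.45 to 12.3 CPM in the other 6-month libraries.

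miR-204, found in choroid plexus and pigment epithelium, had 4456, 5110, 4534, 5255 and 4243 CPM at 12 months, against 3873, 3285, 3934, 3968 and 3382 CPM at 6 months. No 12-month library was within the 6-month range, and the log2 change of 0.36 ± 0.14 (SE) was not called (adjusted p = 0.0699). miR-184 of the eye had 93.3 to 728 CPM at 12 months and 87.7 to 243 CPM at 6 months (1.14, adjusted p = 0.106). Both had an unadjusted p under 0.05, and neither DESeq2 nor limma-voom called them.

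Several other miRNAs were called. miR-732 had 74.9, 30.1, 59.3, 90.3 and 66.8 CPM at 12 months, against 27.5, 24.9, 26.4, 28.6 and 21 CPM at 6 months. Library 2 was just above the 6-month range and the other 12-month libraries far above it (1.32 ± 0.34, adjusted p = 0.0113). miR-1388 had 502, 378, 308, 511 and 271 CPM at 12 months, against 338, 287, 239, 230 and 225 CPM at 6 months, with overlap (0.58 ± 0.18, adjusted p = 0.0352). The call of miR-1388 was lost without library 1, 2 or 4 of 12 months or 3, 4 or 5 of 6 months (highest adjusted p = 0.0964), with library totals, with limma-voom and in a fit of the 10 libraries. That of miR-732 held without any single library and was lost without the libraries over 2000 CPM (adjusted p = 0.365).

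In the miR-30 family, which is broadly expressed, 2 of 5 members fell, against 7.11% of all miRNAs. miR-30b had 1115, 1210, 1252, 1203 and 1178 CPM at 12 months, against 1329, 1395, 1379, 1449 and 1426 CPM at 6 months. The ages were apart although the change was small, -0.23 ± 0.07 on the log2 scale (SE; adjusted p = 0.0284). miR-30a was rare, at 3.02 ± 0.725 CPM at 12 months, against 5.64 ± 2.47 CPM at 6 months (SD, n = 5 each; -0.91, adjusted p = 0.0227). miR-30c, miR-30d and miR-30e differed by 0.04, 0.00 and -0.10. The call of miR-30b was lost without 12-month library 1 or 6-month library 4 or 5 (highest adjusted p = 0.0676), and that of miR-30a without 12-month library 2 or 3 or 6-month library 1 or 2 (0.0826) and in the fit of the 10 libraries. Without the libraries over 2000 CPM neither was called, and the change of miR-30a was -0.24 (adjusted p = 0.698). miR-202, best known from the gonads, was also rare, at 4.39 ± 1.18 CPM at 12 months, against 1.76 ± 0.883 CPM at 6 months (1.28 ± 0.34, adjusted p = 0.0125). Its 6-month libraries held 4 to 25 counts. In edgeR's quasi-likelihood test its call was lost without the libraries over 2000 CPM (1.01, adjusted p = 0.248) and with the covariates (0.9, adjusted p = 0.105).

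miR-2185 split the 12-month libraries. It had 276, 348, 21.2, 10.4 and 246 CPM at 12 months, against 415, 394, 411, 454.4 and 447 CPM at 6 months. All 12-month libraries were below all 6-month libraries, 2 of them by more than a factor of 10, and the log2 change of -1.23 ± 0.72 (SE) was not called (adjusted p = 0.209). The 3 copies of its hairpin had similar counts in each library, for example 64, 76 and 77 in 12-month library 3 and 1521, 1524 and 1426 in 12-month library 1. A like split appeared at 36 months, with 249.9, 231, 38.2, 22.6 and 26.8 CPM, whereas the 24-month libraries held 349.6 to 499.5 CPM. The low 12-month libraries had skin sums of 2016 and 5084 CPM, against 382, 334 and 2148 CPM in the others. At 36 months the low libraries had skin sums of 398, 610 and 282 CPM by library totals, against 1109 and 472 CPM in the others. In 6-month library 2 a skin sum of 3432 CPM stood beside 394 CPM of miR-2185. The part of such differences was not tested.

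The 24-month libraries, in which no transgene is named either, allow the 12-month levels to be set against the midpoint of 6 and 24 months. The contrast of 12 months with the midpoint of the log2 levels at 6 and 24 months shares the 12- and 6-month libraries with the comparison above, so its values stand beside that comparison and are not independent of it. Of 197 miRNAs, 27 (13.7%) departed from the midpoint, 15 upward (7.61%) and 12 downward (6.09%), and 59 (29.9%) had an unadjusted p under 0.05. With library totals the split was 18 upward and 9 downward. A step at 12 months that lasts departs from the midpoint, and so does a steady change with age, since 12 months is nearer to 6 than to 24, so the levels are needed. miR-130b averaged 617 ± 37 CPM at 6 months, 767 ± 51.5 at 12 and 574 ± 53.1 at 24 months (SD, n = 5 each), and was the only miRNA of the 197 whose 12-month libraries were all above those of both other ages (0.37 ± 0.07, adjusted p = 0.00686). miR-190a averaged 220 ± 18.7 CPM at 6 months, 143 ± 10.5 at 12 and 180 ± 18.5 at 24 months, and with miR-2185 was 1 of 2 miRNAs whose 12-month libraries were all below both (-0.48 ± 0.08, adjusted p = 0.00145). By contrast miR-216a averaged 218, 134 and 135 CPM at 6, 12 and 24 months and 132 CPM at both 36 and 42 months (-0.36, adjusted p = 0.0225).

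Other called miRNAs, of which some are given here, differed in their course over the later ages. miR-27b averaged 20060, 27340, 24690, 25820 and 24530 CPM at 6, 12, 24, 36 and 42 months, and departed upward from the midpoint by 0.30 (adjusted p = 0.0116). miR-29a averaged 935, 1311, 1381, 1647 and 1569 CPM at the 5 ages in order, and its departure from the midpoint did not pass (0.21, adjusted p = 0.107). miR-451 averaged 1441, 553, 771, 642 and 584 CPM at the 5 ages in order. At 24 months its libraries held 501 to 1113 CPM, a range that meets those of 12 and of 6 months, and 12 months was below the midpoint by a log2 difference of -0.93 (adjusted p = 0.0237). That departure was lost without 12-month library 2, 3 or 5 (highest adjusted p = 0.0622). miR-732 averaged 25.7, 64.3, 34.8, 37.7 and 46.7 CPM and departed upward by 1.1 (adjusted p = 0.0195). miR-222b, at 52.1, 117, 63.5, 184 and 107 CPM, departed by 1.02 (adjusted p = 0.0211).

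**Figure D5:**
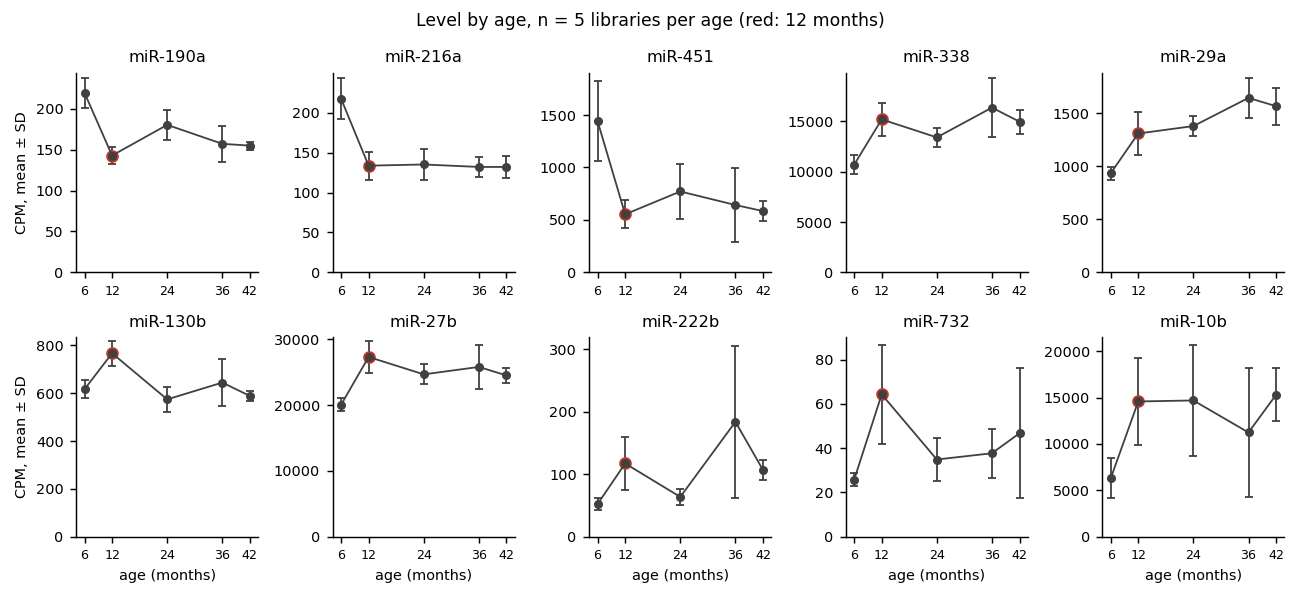
Mean CPM of 10 miRNAs at 6, 12, 24, 36 and 42 months with SD bars (n = 5 libraries per age), the 12-month point drawn in red. miR-216a averages 134 CPM at 12 months and 132 to 135 CPM later, miR-451 averages 553 CPM at 12 months and 771 CPM at 24 months, miR-130b returns to 574 CPM at 24 months, and miR-29a goes on to 1647 CPM at 36 months.

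Some miRNAs departed from the midpoint without a call in 12 against 6 months. let-7e, let-7f and let-7g were lowest of the 3 ages at 12 months: let-7f averaged 4908, 4359 and 5523 CPM at 6, 12 and 24 months (-0.26, adjusted p = 0.0195) and let-7g 7512, 6711 and 8256 CPM (-0.23, adjusted p = 0.0195). let-7e averaged 9948, 9431 and 12620 CPM (-0.25, adjusted p = 0.0234). miR-181c had means of 1264, 1101 and 1389 CPM (-0.27, adjusted p = 0.0183), in the family with the largest counts. miR-142a, made in leukocytes, averaged 462, 580 and 310 CPM (0.62, adjusted p = 0.0287), with 964 CPM in 12-month library 4, and miR-731 averaged 516, 883 and 461 CPM (0.86, adjusted p = 0.0225). The departures of miR-130b, miR-190a, miR-27b, miR-27d, miR-130c, miR-19d, miR-732, miR-181c and let-7g held in all 7 planned settings and without any single library of the 3 ages. Those of miR-216a, let-7e, miR-731 and miR-142a did not, with the highest adjusted p at 0.0657 and 0.0739 for miR-216a and miR-731 without 12-month library 2, 0.0612 for let-7e without 12-month library 5 and 0.151 for miR-142a without 12-month library 4. The departure of let-7f reached 0.0522 without 12-month library 3, and that of miR-222b 0.0733 without 12-month library 2. Those of miR-222b and miR-142a were not called by limma-voom. Without the libraries over 2000 CPM the departures of miR-27b and miR-27d held, and those of miR-130b and miR-190a did not (adjusted p = 0.0917 and 0.0787). Nor did those of miR-130c, miR-19d, miR-732, miR-181c and let-7g (0.18 to 0.422). With the covariates, in edgeR's quasi-likelihood test, those of miR-27d, miR-19d and miR-181c (adjusted p = 0.105 each), let-7g (0.132) and miR-732 (0.064) were lost. Those of miR-130b, miR-190a, miR-27b and miR-130c held with the covariates. Only 1 of the 27 departures, that of miR-27b, was called in every setting run.

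Across all tests, 15 of the 28 calls of 12 against 6 months held in each planned setting that tested them and without any single library. They were miR-27b, miR-27d, miR-29a, miR-130c, miR-202, miR-338 and miR-732, which were higher, and miR-18c, miR-19d, miR-190a, miR-216a, miR-217, miR-451, miR-454b and miR-2188, which were lower at 12 months. The rare miR-18c and miR-202 were tested in 8 of the 9 planned settings, since the filter at a mean of 10 CPM left them out. Calls that also held without the libraries over 2000 CPM and with the miR-200 and skin sums as covariates were those of miR-27b, miR-29a, miR-338, miR-190a, miR-216a and miR-217. No sequence of the miRNAs or of their promoters was used here.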

How the data were processed

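Libraries were made from male zebrafish brain RNA with Illumina's TruSeq kit for small RNA, per the labels' protocols. BWA 0.7.12-r1039, CASAVA 1.8.4, SAMtools 1.3.1-9 and Trimmomatic 0.36 were used, per the submitters' processing notes. Not given in the sources used here: genome build, counting program, and what was done with reads that match several hairpins. The authors deposited 1 table of raw counts for 346 hairpin entries, 17 of them at 0 throughout. All 25 columns were used, so 0 columns stayed unused. Numbered copies were summed to 217 miRNAs. Of these, 51 had several copies, and in 32 the totals of the copies were within 10% of equal.

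In R 4.3.3, edgeR 4.0.16 (TMM factors, robust quasi-likelihood fit of all 25 libraries, age as the group) tested the 197 miRNAs that passed filterByExpr (minimum count 10, minimum total 15) and left out 20. Benjamini-Hochberg adjustment ran over the 197 miRNAs, with adjusted values under 0.05 counted as calls. The SE is derived from the F statistic. CPM are counts per 1000000 of TMM-adjusted library size. The contrasts were 12 minus 6 months and 12 months minus the midpoint of 6 and 24 months. The 8 library summaries (totals, shares, list sums by library total, number detected) were compared by exact permutation over 252 splits of 5 against 5. Replicate numbers follow the order of deposit and pair nothing. No 2 of the 10 libraries agreed within sampling noise, with a lowest chi-square of 113 per degree of freedom over 45 pairs. The median correlation of log2 levels was 0.981 within 12 months, 0.973 within 6 months and 0.966 between them.

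Named in full were miRNAs called at a mean of 10 CPM or more, the largest changes without overlap and the 10 with the most counts. miR-18c, miR-30a and miR-202 are called with lower means. The 30 lists of families and cell types, the comparison and the miRNAs described were chosen with earlier results of these data known. Other miRNAs were named after their values were seen. Alternatives were DESeq2 1.42.0 size factors and Wald test, library totals, 2 other filters, limma-voom (limma 3.58.1), the highest copy, a fit of 10 libraries, no robust estimation and leaving out each library. Chosen after seeing the data were leaving out the libraries over 2000 CPM in miR-200 or skin miRNAs and using these sums as covariates. Neighbours were read from RefSeq (GRCz12tu) for 341 matched hairpin entries, with gaps of at most 10000 bases. The scripts were tested on simulated counts.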

Additional observations from a re-analysis of the deposited data

Results flagged for a closer look

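In 41 of 268 groups of 5 libraries examined, the highest or lowest library was set off from the other 4 by more than 0.71 of the whole range. A gap of that size is expected in about 1 of 20 groups of independent, normally distributed values. The ratio was taken on CPM without a log scale, related miRNAs and their sums were counted separately, and some miRNAs were named after their values were seen. The number of cases therefore cannot be set against that rate. Of the 41 cases, 17 were 12-month library 4 and 12 were 6-month library 2. The causes were not tested.

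12-month library 4 was the highest of its age in epithelial miRNAs, with 917 CPM of miR-200a, 152 of miR-200b, 252 of miR-200c, 648 of miR-141, 817 of miR-429a and 57.3 of miR-429b. By library totals, its miR-200 sum was 2900 CPM, against 140.5 to 590 CPM in the other 12-month libraries. It was also set off in the sensory cell miRNAs, with 5774 CPM of miR-182, 951 of miR-183 and 32.6 of miR-96. The mesenchymal miR-199 and miR-214 stood at 3767 and 101.7 CPM there, and the muscle miR-133c, miR-206 and miR-499 at 14.2, 36.1 and 148 CPM. miR-451 was set off upward in it too, at 783 CPM, within an age that was below 6 months in every library, and so was miR-27a at 364.5 CPM.

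6-month library 2 was the highest of its age in muscle miRNAs, with 26.2 CPM of miR-133c, 55.1 of miR-206 and 123 of miR-499. It was likewise highest in the blood and immune miRNAs miR-142a, miR-146b, miR-155 and miR-223, at 649.7, 200.2, 16.6 and 19.1 CPM. Its skin sum by library totals was 3861 CPM and its miR-203b level 1620 CPM. miR-192 was highest there at 359 CPM, miR-16a highest at 70.9 CPM and miR-128 lowest at 52720 CPM.

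The remaining cases were scattered. In 12-month library 1, miR-101a was highest at 11550 CPM and miR-20b lowest at 2.4 CPM. In 12-month library 2, miR-126a, miR-143 and miR-23b were highest at 4045, 18770 and 721 CPM, and miR-16a was lowest at 41.5 CPM. In 12-month library 3, miR-10b and miR-10d were highest at 22850 and 6305 CPM. In 6-month library 3, miR-19c was highest at 61.1 CPM and miR-34a lowest at 313 CPM, and in 6-month library 4 miR-101a and let-7h were highest at 7872 and 1810.0 CPM.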

How the results depend on the processing

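The count of 28 miRNAs called in 12 against 6 months became 49 (26 higher, 23 lower) with DESeq2's Wald test, 10 (5 and 5) without the libraries over 2000 CPM and 14 (6 and 8) with the epithelial sums as covariates; the cause was not tested. In the other planned settings it was 26 to 33. Without 1 library at a time it was 19 to 66, with 8 to 28 higher and 10 to 38 lower; 66 was without 12-month library 4, and the next highest was 29. The 27 departures from the midpoint became 4 (4 upward, 0 downward) without the libraries over 2000 CPM and 8 (4 and 4) with the covariates. Upward departures numbered 7 with limma-voom, and downward ones 19 with DESeq2's Wald test. Without 1 library at a time there were 15 to 38, with 8 to 24 upward and 6 to 20 downward. The lowest were without 12-month libraries 2 and 3, at 15 and 16. No departure was downward without the libraries over 2000 CPM, where 36 miRNAs had an unadjusted p under 0.05.

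Some log2 changes of miRNAs that were not called in 12 against 6 months changed sign. With library totals miR-143 and miR-30c were -0.03 and 0.00. With limma-voom miR-143, miR-146a, miR-203a and miR-203b were -0.01, -0.02, -0.39 and -0.14. Other filters put miR-26a and miR-27e at 0.01, miR-30d at 0.02 and miR-499 at 0.00, and the highest copy put miR-9 at -0.02 and miR-24 at 0.09. Without the libraries over 2000 CPM miR-145, miR-146a, miR-150, miR-203a, miR-203b and miR-205 were 0.18, -0.03, 0.13, -0.39, -0.84 and -0.30, miR-24, miR-27e and miR-430b were 0.03, 0.01 and -2.76, and the departures of miR-184 and miR-430b from the midpoint were -0.08 and -1.85. With the covariates miR-141, miR-200c, miR-429a and miR-429b were 0.19, 0.32, 0.19 and 1.21, and miR-203a and miR-203b -0.19 and -0.36. These 6 are part of the sums used as covariates, so their adjusted values say nothing about them. With the same covariates miR-143, miR-30c, miR-26a, miR-34c and miR-724 were -0.16, -0.08, 0.03, 0.15 and 0.03. Without 1 library at a time, miR-133c ranged from -3.16 to 0.43, miR-206 from -3.23 to 0.69 and miR-499 from -1.57 to 0.98. The same ranges were -0.16 to 0.12 for miR-143, -0.19 to 0.03 for miR-145, -0.17 to 0.27 for miR-146a, -0.88 to 0.80 for miR-203a and -0.61 to 1.08 for miR-203b. They were -0.05 to 0.00 for miR-26a, -0.08 to 0.00 for miR-26b, -0.07 to 0.41 for miR-27c, -0.01 to 0.21 for miR-29b and -0.08 to 0.04 for miR-724. They were -0.03 to 0.32 for miR-142b, -0.02 to 0.39 for miR-23a, -0.16 to 0.02 for miR-24, -0.19 to 0.61 for miR-27a, -0.12 to 0.09 for miR-27e, -0.02 to 0.1 for miR-30c and -0.03 to 0.03 for miR-30d. The difference in the summed CPM of the skin miRNAs ranged from -236 to 1130 CPM and that in miRNAs detected from -0.1 to 1.25. No miRNA called in 12 against 6 months changed sign in any setting run; of those called against the midpoint, miR-184 and miR-430b did so, only without the libraries over 2000 CPM. Of the remaining comparisons of named miRNAs with their main value, 2861 kept their side of the threshold, 242 lost it and 101 gained it.

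No paired analysis was possible because the labels give no replicate numbers and the numbers used here follow the order of deposit. Line and age cannot be told apart between 12 and 6 months. Depth limits the miRNAs under 10 CPM, which hold few counts in a library of 3983783. With 5 libraries per age, small changes can be missed.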

Other observations

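miR-430b, one of the miRNAs that clear maternal messages in the early zebrafish embryo, was near 0 in most libraries. It had 0.247, 0, 19.2, 5.57 and 0.773 CPM at 12 months, against 0.392, 0.991, 0, 2.28 and 0.233 CPM at 6 months. The level was carried by 12-month libraries 3 and 4, the log2 change of 2.71 ± 1.13 (SE) was not called (adjusted p = 0.0926, edgeR's quasi-likelihood test), and it was -2.76 without the libraries over 2000 CPM. Its departure from the midpoint of 6 and 24 months was called (3.35, adjusted p = 0.0214, edgeR's quasi-likelihood test) and was -1.85 without those libraries. miR-726 was rare at both ages, with 3.02, 0, 0.586, 2.85 and 0.619 CPM at 12 months, against 7.85, 14.9, 5.95, 2.07 and 21 CPM at 6 months (-2.81 ± 1.11, adjusted p = 0.0782).

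None of the 8 library summaries passed after adjustment. The smallest p of the exact permutation test, 0.00794, became 0.0635 over 8 summaries, so 1 summary alone could not pass. miR-181a took 24.7% ± 2.17 of all counts at 12 months and 28.05% ± 1.23 at 6 months (SD, n = 5 each; exact two-sided permutation p = 0.0238, adjusted 0.0952 over 8 summaries). The 10 miRNAs with the most counts took 58.9% ± 1.45 at 12 months and 61.1% ± 1.63 at 6 months (exact permutation p = 0.0794, adjusted 0.127). The number of miRNAs with at least 1 count was 203 ± 1.58 at 12 months and 202.6 ± 2.07 at 6 months (exact permutation p = 0.873).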
